A study of Mus musculus with 15 samples.

Results

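The *Eif* transcripts encode the eukaryotic translation initiation factors (eIFs), the kinases that act on eIF2 and the proteins that hold eIF4E. They were chosen as the transcripts whose gene symbol starts with *Eif*, which gave 55 of the 21727 transcripts listed. Of these 55, 49 passed the filter on low counts and were tested among 10085 transcripts. Ribosome-protected fragments (RPFs), the pieces of mRNA that a ribosome shields from nuclease, were sequenced from mouse embryonic stem cells (mESCs) of the line E14Tg2a.4, a male line. In *Rps27-FLAG* cells (clones 2b12, 2c3 and 2c4) both copies of *Rps27* were edited to end in a 3xFLAG tag, *Rps27l-FLAG* cells (clones 4a2, 4a3 and 4b7) carry the tag at its paralog *Rps27l*, and WT cells (5a1, 5a2 and 5a3) are passage-matched and untagged. Rps27 and Rps27l are alternative forms of the small subunit ribosomal protein eS27. Total RPFs came from all ribosomes of the 9 clones and IP RPFs from ribosomes caught with an anti-FLAG antibody from the 6 tagged clones, which gives 15 libraries in 5 conditions of 3. Each tagged clone grew from a single edited cell, all cells were lysed with cycloheximide, which stalls ribosomes, and an IP from untagged cells was not analysed here.

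Initiation places a ribosome at the start codon of an mRNA. eIF2, a trimer of alpha, beta and gamma subunits, brings the initiator tRNA to the 40S subunit with eIF1, eIF1A, eIF3 and eIF5. eIF4F, made of the cap-binding eIF4E, the scaffold eIF4G and the helicase eIF4A, brings the mRNA. eIF2B recharges eIF2 with GTP and is blocked when an Eif2ak kinase phosphorylates eIF2 alpha, and the 4E-binding proteins keep eIF4E from eIF4G. Many of these factors are abundant in growing cells such as mESCs.

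Library totals ran from 3972152 to 8064166 counts, and the *Eif* transcripts held between 1.82% and 2.02% of a library. All 10 markers of mESCs were above 2 CPM (counts scaled to a common library size) in every library, with a summed level of 4066 to 5101 normalized CPM. The summed markers of fibroblasts reached 9.21 to 33.2 normalized CPM and those of primitive endoderm 4.60 to 27.1. Those of trophoblast reached 63.9 to 136, mostly from *Tfap2c* (39.1 to 87.2) and *Krt8* (21.7 to 50.2). *Cdx2* had at most 1.42 and *Elf5* at most 0.177. Those of neural cells reached 101 to 140, mostly from *Tubb3* (94.6 to 125). *Pax6* had 0.781 to 20.0 and *Neurod1* 0.225 to 5.76. The part of these markers in the results was not tested. Clones are separate cultures, and the libraries of clones with the same replicate number were sequenced in 1 pool.

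*Eif3j1* and *Eif3j2*, described below, could not be told apart by their reads. The near paralogs shown here could, because few stretches of their coding sequences (CDS) are identical. For each pair the most alike windows of 28 nt, about the length of an RPF, are shown 5′ to 3′ with the bases that differ in capitals (GENCODE M21 transcripts, build GRCm38).
*Eif2s3x*, chrX:94211721-94211748 (- strand): ttatcagcagacaagcTacaattaatat
*Eif2s3y*, chrY:1011294-1011321 (+ strand): ttatcagcagacaagcCacaattaatat
*Eif4a1*, chr11:69668694-69668721 (- strand): gaagcagatgaaatgttAagccgagggt
*Eif4a2*, chr16:23110266-23110293 (+ strand): gaagcagatgaaatgttGagccgagggt
*Eif1*, chr11:100320948-100320975 (+ strand): aaatttgcctgcaatggTactgtAattg
*Eif1b*, chr9:120494535-120494562 (+ strand): aaatttgcctgcaatggAactgtGattg
*Eif5a*, chr11:69919171-69919198 (- strand): atcgtCgagatgtcTacttcGaagactg
*Eif5a2*, chr3:28782169-28782196 (+ strand): atcgtGgagatgtcAacttcCaagactg
Each window lies within 1 exon of the CDS. The closest windows differed at 1 base for *Eif2s3x* and *Eif2s3y* and for *Eif4a1* and *Eif4a2*, at 2 bases for *Eif1* and *Eif1b*, and at 3 bases for *Eif5a* and *Eif5a2*. Over the whole CDS the identity was 86.3% for the *Eif2s3* pair, 77.7% for the *Eif4a* pair, 81.3% for the *Eif1* pair and 72.7% for the *Eif5a* pair. Of the windows of *Eif2s3y* within 1 exon, 238 of 1038 lay within 2 mismatches of an *Eif2s3x* window, against 61 of 894 for *Eif4a2* and *Eif4a1*. An exchange of reads with sequencing errors within these pairs was not tested. Counting windows across exon junctions as well, 7 of 1332 windows of *Eif2s3y* also occurred in another listed transcript, most often in *Eif2s3x*.

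The 6 *Eif* transcripts that were not tested had few reads or reads in few clones. *Eif3j1* and *Eif3j2*, which encode the loosely bound j subunit of eIF3, had 0 counts in all 15 libraries. All 28-nt windows of either one also occurred in another listed transcript, and the authors kept reads with a unique alignment only. *Eif4e1b* had 0 to 2 counts and *Eif4e3* 0 to 8 counts per library, and 48.8% of the windows of *Eif4e3* were shared with *Gm20696*. *Eif4ebp3* had 8 to 30 counts, and *Eif2s3y* had between 0 and 1028. Shared windows also touched tested members, most of all *Eif4a3* with 47.0% (shared with *Gm5580*), *Eif1a* with 37.6% (*Gm16368*) and *Eif3i* with 10.9% (*4930503E24Rik*), so their levels are lower limits. The transcript listed for *Eif4g2* has an annotated CDS of 483 nt, whose 3′ end the annotation leaves incomplete, and it begins with GTG where its relatives begin with ATG, as the first 30 bases show with the start codon in capitals.
*Eif4g2*, chr7:111081518-111081547 (- strand): GTGgagagtgcgattgcagaagggggtgct
*Eif4g1*, chr16:20673902-20673931 (+ strand): ATGaacaaagctccccagcccacaggcccc
*Eif4g3*, chr4:138082959-138082988 (+ strand): ATGaactcacaacctcaggcccggtctccg
*Eif4g2* encodes a relative of eIF4G that lacks the eIF4E-binding part, and its use of a GUG start codon is known.

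In WT total RPFs the tested *Eif* transcripts were densely covered, with a median of 249 CPM per kb of counted CDS against 25.4 for all tested transcripts. RPFs per kb rise with both the amount of an mRNA and the number of ribosomes on it. The highest level was that of *Eif4a1*, the main eIF4A helicase, with 1830.4, 1784 and 1904 CPM per kb in the 3 WT clones. *Eif5a*, a factor first purified as an initiation factor that helps peptide bond formation, followed with 1636, 1640.3 and 1781. *Eif1*, which guards start codon choice, had 1048, 1073 and 1051, *Eif2s2* (eIF2 beta) had 829, 735 and 740.0, and *Eif3k* had 678, 713 and 658. The ranges of these 5 transcripts did not overlap. At the other end lay *Eif2ak3*, which encodes the endoplasmic reticulum stress kinase PERK, with 5.03, 5.74 and 4.96 CPM per kb, and *Eif2ak4*, which encodes the amino acid sensor GCN2, with 7.25, 7.64 and 6.39. *Eif4g3* had 11.9, 12.5 and 13.1, *Eif5a2* had 16.4, 20.5 and 16.7, and *Eif4enif1*, which encodes the eIF4E transporter 4E-T, had 22.5, 23.8 and 24.4. Neighbours in this order did not overlap either.

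**Figure D1:**
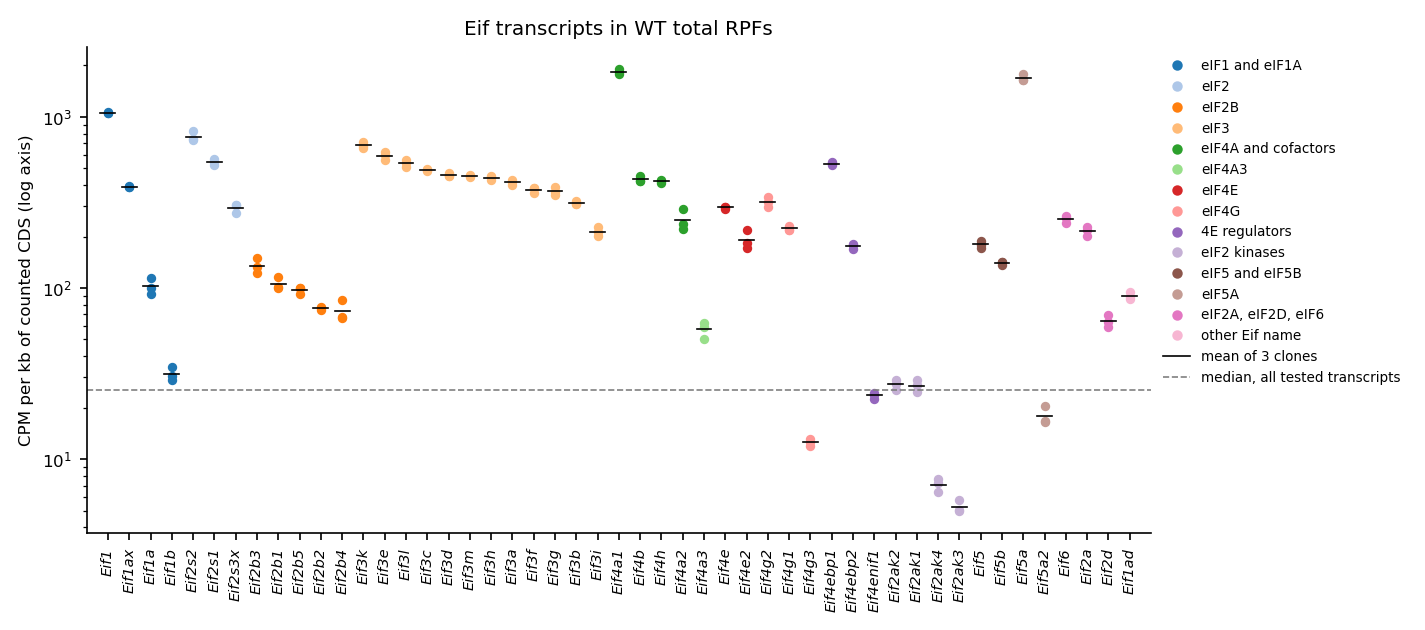
CPM per kb of counted CDS (log axis) of the 49 tested *Eif* transcripts in WT total RPFs, grouped by role and coloured by it, with 1 point per clone (n = 3), a bar at their mean and a dashed line at the median of all tested transcripts. The eIF3 subunits lie between 213 and 683, while paralogs such as *Eif4a1* and *Eif4a2* or *Eif5a* and *Eif5a2* lie far apart.

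The 12 tested subunits of eIF3, the largest initiation factor, ran from 213 ± 12.8 (mean ± SD, n = 3) for *Eif3i* to 683 ± 28 CPM per kb for *Eif3k*. Between them came *Eif3b* with 315 ± 7.99, *Eif3g* with 368 ± 19.3, *Eif3f* with 375 ± 14.3 and *Eif3a* with 414 ± 13.3. They were followed by *Eif3h* with 441 ± 10.1, *Eif3m* with 452 ± 4.96, *Eif3d* with 459 ± 11.1, *Eif3c* with 490.0 ± 7.24, *Eif3l* with 537 ± 25.5 and *Eif3e* with 594 ± 30.7. In this order the clones of *Eif3g* and *Eif3f*, of *Eif3h* and *Eif3m*, and of *Eif3m* and *Eif3d* overlapped, while the other neighbours did not.

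In eIF2 the order was *Eif2s2* (beta), *Eif2s1* (alpha, 547 ± 24) and *Eif2s3x* (gamma, 295 ± 18.2), with no overlap between clones. The 5 subunits of eIF2B lay lower, from 72.9 ± 10.3 for *Eif2b4* and 76 ± 1.56 for *Eif2b2* to 97.3 ± 4.91 for *Eif2b5*, 106 ± 9.25 for *Eif2b1* and 135 ± 13.3 for *Eif2b3*. *Eif2b4* and *Eif2b2* overlapped, as did *Eif2b5* and *Eif2b1*.

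For eIF4F, *Eif4e* had 296 ± 4.39 and its relative *Eif4e2*, which binds caps without joining eIF4G, had 191 ± 24.6 CPM per kb. The scaffold *Eif4g1* had 223 ± 6.93, about as much per kb as *Eif4a2* (249 ± 35.3), with which it overlapped. The cofactors of the helicase, *Eif4b* and *Eif4h*, had 433 ± 16.7 and 422 ± 8.1. Of the 4E-binding proteins *Eif4ebp1* had 534 ± 11.4, *Eif4ebp2* 176 ± 6.19 and *Eif4ebp3* 12.6 ± 1.57, so the order of their levels held in every clone. Among the eIF2 kinases, *Eif2ak2* (the double-stranded RNA sensor PKR, 27.4 ± 1.83) and *Eif2ak1* (the haem-regulated kinase HRI, 26.9 ± 2.24) overlapped and lay above *Eif2ak4* and *Eif2ak3*. Of the remaining roles, *Eif5*, the GTPase activator of eIF2, had 179.6 ± 9.32, and *Eif5b*, which joins the subunits, had 139 ± 3.4. *Eif6*, which keeps free 60S subunits apart from 40S, had 254 ± 10.8. *Eif2a* had 215 ± 12.3, *Eif1ax* 390.5 ± 3.01, *Eif1a* 103 ± 11.4, *Eif1ad* 89.9 ± 4.85, *Eif2d* 63.8 ± 4.97, and *Eif4a3*, a helicase of the exon junction complex, 57.3 ± 6.26. *Eif4g2* had 318 ± 22.8 over its listed CDS.

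Where paralogs code for the same factor, one of them took most of the RPFs. *Eif1b* had 8.68, 9.7 and 8.22 normalized CPM in WT, 9.83, 7.53 and 9.38 in *Rps27-FLAG* and 12.5, 10.9 and 9.8 in *Rps27l-FLAG* total RPFs. *Eif1*, with a CDS of the same length, had 295, 303 and 296 in WT, 303, 279.6 and 314 in *Rps27-FLAG* and 326, 336 and 323 in *Rps27l-FLAG*. Of the pair, *Eif1b* was far lower in every clone. For *Eif5a2* the values were 6.58, 8.24 and 6.72 in WT, 6.77, 4.83 and 7.24 in *Rps27-FLAG* and 7.68, 5.92 and 8.22 in *Rps27l-FLAG*. *Eif5a*, at nearly the same length, reached 663, 664 and 721 in WT, 622, 689.7 and 745 in *Rps27-FLAG* and 641, 645 and 688 in *Rps27l-FLAG*. *Eif1* and *Eif5a* exceeded their paralogs in every library. With 38 to 96 counts for *Eif1b* and 31 to 62 for *Eif5a2* per library, small differences in these paralogs were not detectable at this depth.

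The gamma subunit of eIF2 is encoded on both sex chromosomes, by *Eif2s3x* (X) and *Eif2s3y* (Y), and the Y copy differed widely from clone to clone. In total RPFs *Eif2s3y* had 100.3, 1.73 and 4.48 normalized CPM in WT clones 5a1, 5a2 and 5a3. It had 131, 146 and 0.658 in *Rps27-FLAG* clones 2b12, 2c3 and 2c4. It had 123, 113 and 0 in *Rps27l-FLAG* clones 4a2, 4a3 and 4b7, where 0 counts in 4b7 allow up to 0.474 normalized CPM. Each line thus held at least 1 clone with over 100 and at least 1 with under 5 normalized CPM, and the difference did not follow the tag. By library pool, 5a1, 2b12 and 4a2 of pool 1 were over 100, and 5a3, 2c4 and 4b7 of pool 3 were under 5. In pool 2, 2c3 and 4a3 were over 100 and 5a2 had 1.73. The part of the library pool in this difference was not tested. Fewer cells with the transcript and less of it per cell cannot be told apart in bulk libraries.

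The IP RPFs of the same clones showed the same pattern, with 103, 124 and 0.921 in *Rps27-FLAG* and 117, 95.4 and 0.256 in *Rps27l-FLAG*. *Eif2s3x* had 372, 416 and 414 normalized CPM in WT, 358, 414 and 399 in *Rps27-FLAG* and 382, 375 and 385 in *Rps27l-FLAG* total RPFs, so it varied little beside its Y copy. *Eif2s3y* made up 21.2% to 26.7% of the summed gamma RPFs in the total libraries of 2b12, 2c3, 4a2, 4a3 and 5a1. It made up 1.07% in 5a3, 0.414% in 5a2, 0.165% in 2c4 and none in 4b7.

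Most other transcripts of the Y chromosome were low in the same clones, but not all were high where *Eif2s3y* was. *Uba1y*, a ubiquitin-activating enzyme, had 25.6, 50.6, 10.7, 56.8 and 31.7 normalized CPM in 5a1, 2b12, 2c3, 4a2 and 4a3, and at most 1.33 in 5a2, 5a3, 2c4 and 4b7. The helicase gene *Ddx3y* had 181 in 4a2 and 112 in 2c3 but 7.28 in 5a1 and 6.66 in 4a3, whose *Eif2s3y* was high. *Uty*, a histone demethylase relative, likewise had 2.10 in 5a1 and 1.60 in 4a3. *Gm47283* had at least 4.74 in all 9 clones. Because of the clones with little or none of it, *Eif2s3y* had CPM above 2 in 10 libraries and was not tested.

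**Figure D2:**
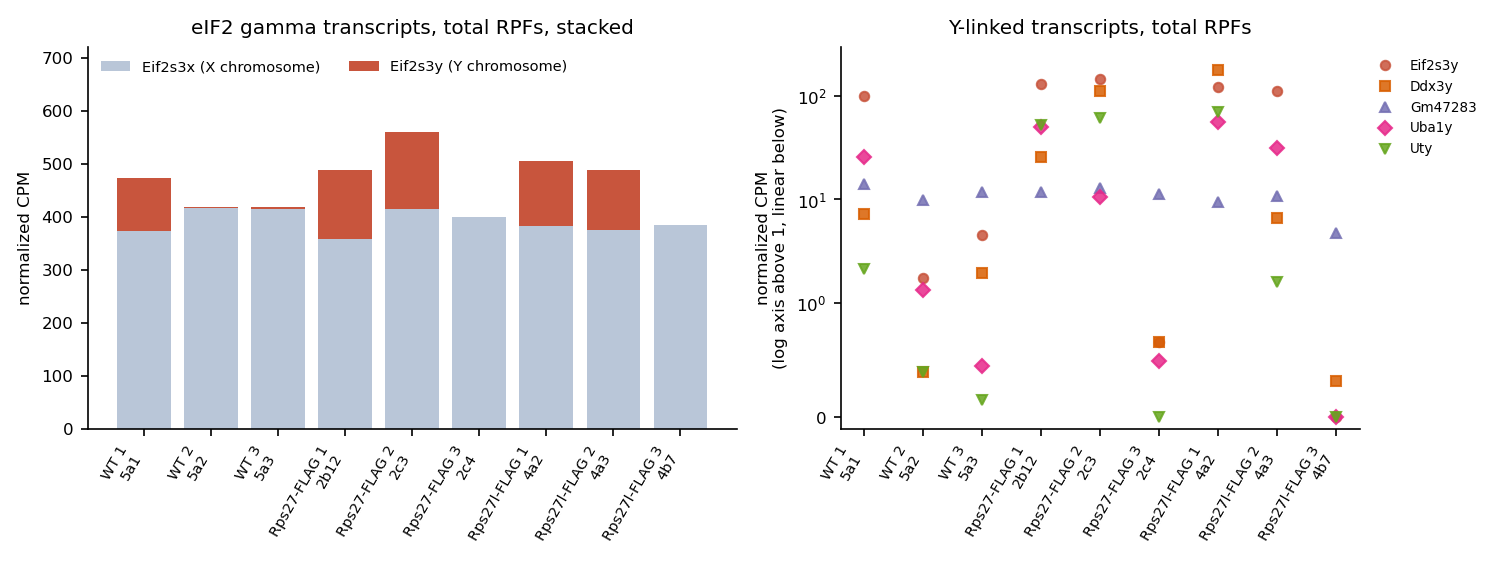
Left, normalized CPM of *Eif2s3x* and *Eif2s3y* stacked, in the total RPFs of each of the 9 clones. Right, normalized CPM of the Y-linked transcripts above 2 in at least 1 of these libraries (log axis above 1, linear below, 1 point per clone). *Eif2s3y* lies between 100.3 and 146 in 5 clones and at or under 4.48 in 5a2, 5a3, 2c4 and 4b7.

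Total RPFs of the 3 lines were compared to ask whether tagging either paralog changed which mRNAs are translated. At an adjusted p under 0.05 (edgeR's quasi-likelihood test, Benjamini-Hochberg adjustment over 10085 transcripts) none of the 49 *Eif* transcripts passed in any of the 3 comparisons, against a background of 0% of all tested transcripts in each. voom and DESeq2 also called 0 members. At an unadjusted p under 0.05 edgeR gave 2 members in *Rps27-FLAG* against WT, 3 in *Rps27l-FLAG* against WT and 5 in *Rps27l-FLAG* against *Rps27-FLAG*, beside 294, 574 and 580 of all 10085 transcripts. The 3 comparisons share their libraries, so they are not independent of each other. The median log2 fold change of the members was 0.027, -0.023 and -0.055 in this order, beside -0.0011, 0.0026 and 0.0032 for all tested transcripts. The clones of both lines did not overlap for 2, 8 and 9 members, or 4.08%, 16.3% and 18.4%, against 8.52%, 9.65% and 11.5% of all tested transcripts. With the library pool as a block, the background was 0.00992%, 1.43% and 1.36% of transcripts called, and 0, 1 and 1 members passed.

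The 1 member that passed with this block was *Eif4a2*, the second eIF4A helicase. Its normalized CPM in total RPFs were 336, 276 and 258 in WT, 309, 250.3 and 286 in *Rps27-FLAG* and 368, 341 and 442 in *Rps27l-FLAG*. All 3 *Rps27l-FLAG* clones lay above all clones of the other lines. The log2 fold change was 0.40 (SE 0.12, adjusted p = 0.821) against WT and 0.44 (SE 0.12, adjusted p = 0.803) against *Rps27-FLAG* by edgeR. With the library pool as a block the adjusted p was 0.046 and 0.0342. These calls rested on single libraries. With this block and without *Rps27l-FLAG* replicate 3 the edgeR adjusted p was 0.177 against WT and 0.137 against *Rps27-FLAG*. Against WT it was 0.136 without WT replicate 2 and 0.341 without WT replicate 3. Against *Rps27-FLAG* it was 0.123, 0.228 and 0.172 without *Rps27-FLAG* replicate 1, 2 and 3. The fold change stayed positive in all of these fits.

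*Eif4a1*, in contrast, had 2125, 2072 and 2211 normalized CPM in WT, 2019.5, 2159 and 2353 in *Rps27-FLAG* and 2072, 2076 and 2240.2 in *Rps27l-FLAG* total RPFs, and the lines overlapped. *Eif4g3*, the second eIF4G, had 55.1, 58.1 and 60.9 in WT, 71.8, 90.1 and 78.6 in *Rps27-FLAG* and 60.9, 71.9 and 47.6 in *Rps27l-FLAG*. The *Rps27-FLAG* clones lay above the WT clones (log2 fold change 0.47, SE 0.14), but the edgeR adjusted p was 0.999, and 0.622 with the library pool as a block. *Eif2ak3* had 16.5, 18.9 and 16.3 in WT, 14.9, 16.9 and 14.1 in *Rps27-FLAG* and 12.9, 12.2 and 13.8 in *Rps27l-FLAG*. Its *Rps27l-FLAG* clones lay below all others (log2 fold change -0.41 against WT, SE 0.13), with an edgeR adjusted p of 0.821, or 0.159 with this block. *Eif4enif1* had 65.1, 68.7 and 70.5 in WT, 63.4, 72.3 and 67.9 in *Rps27-FLAG* and 66.1, 64 and 63.7 in *Rps27l-FLAG*. *Eif2ak4* had 35.4, 37.3 and 31.2 in WT, 35.3, 32 and 34.9 in *Rps27-FLAG* and 35.1, 37.5 and 35.6 in *Rps27l-FLAG*, and the lines overlapped for both.

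**Figure D3:**
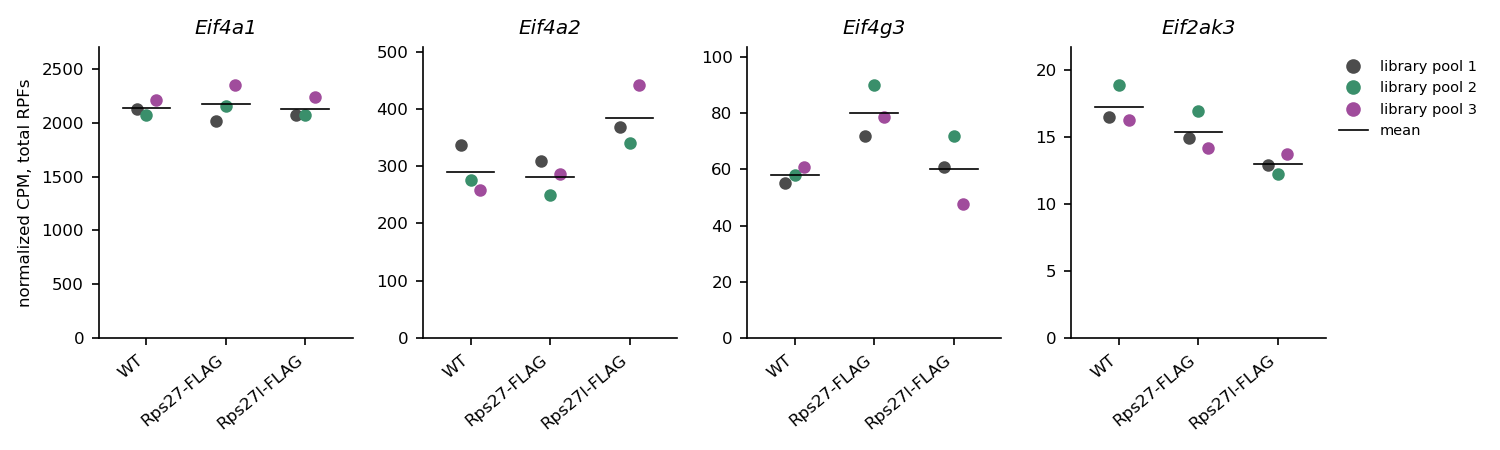
Normalized CPM in total RPFs of *Eif4a1*, *Eif4a2*, *Eif4g3* and *Eif2ak3* in the 3 lines, with 1 point per clone coloured by library pool (n = 3) and a bar at the mean; each axis starts at 0. The *Rps27l-FLAG* clones lie above all others for *Eif4a2*, the *Rps27-FLAG* clones lie above the WT clones for *Eif4g3*, and *Eif4a1* overlaps between lines.

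Setting the IP RPFs of a tagged line against its total RPFs asks which mRNAs are more or less frequent on ribosomes caught by the tag. No IP from untagged cells was analysed, so the part of the IP step itself in these differences was not tested. In the fit with the fraction as its only term, 4 of 49 *Eif* transcripts passed in *Rps27-FLAG*. *Eif4ebp1* and *Eif4b* were higher (2 members, background 0.327% of all tested transcripts) and *Eif3d* and *Eif2ak1* were lower (2 members, background 5.34%). In *Rps27l-FLAG*, *Eif5a*, *Eif4b*, *Eif4a1* and *Eif1* were higher (4 members, background 0.833%), and none was lower (background 2.27%). voom and DESeq2 also called 0 members lower there. At an unadjusted p under 0.05 edgeR gave 17 members in *Rps27-FLAG* and 19 in *Rps27l-FLAG* in either direction, beside 2230 and 1752 of all 10085 transcripts. These counts rested on single clones. Without *Rps27-FLAG* replicate 1 the count for that line was 20, and without replicate 2 or replicate 3 it was 0. Without *Rps27l-FLAG* replicate 1 or replicate 2 the count was 0, and without replicate 3 it was 3. The share of all tested transcripts called without each clone is not set beside these counts. They describe how stable the calls were and not the family.

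Each clone gave both an IP and a total library, and with the clone as a block many more members passed. In *Rps27-FLAG* 24 of 49 were higher (background 18.3%) and 8 lower (background 22.9%). In *Rps27l-FLAG* 22 were higher (background 12%) and 5 lower (background 19%). These backgrounds were not matched for level. The members had a median of 249 CPM per kb in WT total RPFs, against 25.4 for all tested transcripts. The part of this difference in the counts of calls was not tested. Leaving out 1 clone at a time in this paired fit gave 27 to 31 called members in *Rps27-FLAG* and 22 to 27 in *Rps27l-FLAG*, without the share of all tested transcripts beside them. The median log2 fold change of the 49 was 0.12 in *Rps27-FLAG* and 0.10 in *Rps27l-FLAG*, beside -0.01 and -0.03 over all tested transcripts, and 37 and 33 members were above 0. All sizes were small, the largest being -0.36 for *Eif2ak1* in *Rps27-FLAG* and -0.35 in *Rps27l-FLAG*. SEs and p-values come from edgeR's fit, which shares information on spread between transcripts, and are not the SD between clones. *Eif2b2*, which was called higher in *Rps27-FLAG*, had log2 ratios per clone of 0.04, 0.30 and 0.03 there. IP and total libraries did not overlap for 19 members (38.8%) in *Rps27-FLAG* and 25 (51.0%) in *Rps27l-FLAG*, against 28.3% and 23.3% of all tested transcripts.

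Of the 4 tested transcripts of eIF1 and eIF1A, *Eif1* and *Eif1ax* were called higher with the block in each line (backgrounds 18.3% and 12%), and *Eif1a* and *Eif1b* were not called. *Eif1* had 348, 336 and 379 normalized CPM in the IP RPFs of *Rps27-FLAG* and 380.5, 409 and 391 in those of *Rps27l-FLAG*, and each of these values was above the total RPFs of every clone of the same line. Its paired log2 fold change was 0.24 (SE 0.031) and 0.26 (SE 0.03). *Eif1ax*, the X-linked eIF1A, had 131, 148 and 141 in total and 159, 174 and 171 in IP RPFs of *Rps27-FLAG*. In *Rps27l-FLAG* it had 145, 141 and 149 in total and 153, 175 and 155 in IP RPFs. Its log2 ratios per clone were 0.28, 0.23 and 0.27 in *Rps27-FLAG* and 0.07, 0.30 and 0.05 in *Rps27l-FLAG*, and it passed in both lines. *Eif1b* had IP values of 11.6, 10.9 and 8.75 in *Rps27-FLAG* and 14.2, 10.1 and 12 in *Rps27l-FLAG*, which did not pass in either line.

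*Eif4a1*, *Eif4a2* and the cofactors *Eif4b* and *Eif4h* had fold changes above 0 in both lines, while *Eif4a3* had -0.03 and 0.06 and was not called. *Eif4b*, which stimulates the helicase, had 773, 736 and 749 in total and 892, 878 and 872 in IP RPFs of *Rps27-FLAG*. The *Rps27l-FLAG* clones had 756, 732 and 729.7 in total and 909, 912 and 877 in IP RPFs, so IP and total did not overlap in either line. It was the only member called higher in both lines without the block, with log2 fold changes of 0.23 (SE 0.052, edgeR adjusted p = 0.0471) and 0.28 (SE 0.042, adjusted p = 0.0183). *Eif4a1* had 2093, 2469 and 2541 in the IP RPFs of *Rps27-FLAG* and 2427, 2631 and 2690.1 in those of *Rps27l-FLAG*. Its IP values overlapped with the total RPFs in *Rps27-FLAG* but not in *Rps27l-FLAG*. *Eif4a2* had IP values of 318, 251 and 302 in *Rps27-FLAG* and 387, 378 and 472 in *Rps27l-FLAG*, and it passed with the block in *Rps27l-FLAG* (log2 fold change 0.10, SE 0.03) but not in *Rps27-FLAG* (0.04, SE 0.032). *Eif4h* passed with the block in both lines (0.19 and 0.20).

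*Eif5a* had 687, 869 and 898 in the IP RPFs of *Rps27-FLAG* and 755, 853 and 850.5 in those of *Rps27l-FLAG*, which overlapped with the total RPFs in *Rps27-FLAG* only. With the block its log2 fold change was 0.25 (SE 0.03) and 0.31 (SE 0.028), the largest increase of a member in *Rps27l-FLAG*. *Eif5a2*, with IP values of 6.5, 8.16 and 8.52 in *Rps27-FLAG* and 8.67, 7.42 and 7.92 in *Rps27l-FLAG*, did not pass. *Eif4ebp1* had 149, 156 and 160.2 in total and 184, 186 and 187 in IP RPFs of *Rps27-FLAG*. In *Rps27l-FLAG* it had 163, 143 and 154 in total and 185, 186 and 181 in IP RPFs. Its log2 fold change was 0.26 with the block in both lines, no IP library overlapped with a total library, and the call in *Rps27-FLAG* was lost with the CDS length trend removed. *Eif4ebp2* and *Eif4enif1* did not pass in either line with the block alone. *Eif4e* (0.21 and 0.14) and *Eif4e2* (0.18 and 0.12) passed in both with the block. With the CDS length trend removed as well, *Eif4e2* passed in neither line and *Eif4e* in *Rps27-FLAG* alone.

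The subunits of eIF2 did not move together. *Eif2s2* (beta) was higher in the IP RPFs, with 757, 761 and 799.7 in total and 827, 905 and 923 in IP RPFs of *Rps27-FLAG*. In *Rps27l-FLAG* it had 783, 783 and 745 in total and 872, 949.8 and 869 in IP RPFs, and its paired log2 fold change was 0.19 and 0.22 (SE 0.03 and 0.028). *Eif2s3x* (gamma) was lower, with 303, 351 and 335 in the IP RPFs of *Rps27-FLAG* and 342, 339 and 352 in those of *Rps27l-FLAG*, all below the total RPFs of the same line. Its log2 ratio per clone was -0.24, -0.24 and -0.25 in *Rps27-FLAG* and -0.16, -0.14 and -0.13 in *Rps27l-FLAG*, the narrowest spread of the 49 members in *Rps27-FLAG*. The edgeR adjusted p with the block was 1.31e-13 and 9.4e-05. *Eif2s1* (alpha) had 0.00 in *Rps27-FLAG*, which did not pass, and 0.10 in *Rps27l-FLAG*, which passed.

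Within eIF3 the block gave 6 of 12 subunits higher and 4 lower for *Rps27-FLAG*, beside 18.3% and 22.9% of all tested transcripts. For *Rps27l-FLAG* it gave 6 higher and 1 lower, beside 12% and 19%. *Eif3d*, the subunit that can bind the cap of some mRNAs, was lower in both. Its normalized CPM were 777, 777 and 803 in total and 623, 660.1 and 623 in IP RPFs of *Rps27-FLAG*. In *Rps27l-FLAG* they were 745, 696 and 696 in total and 650.2, 624 and 604 in IP RPFs. The total and IP values did not overlap in either line, and the paired log2 fold change was -0.31 (SE 0.03) and -0.19 (SE 0.028). *Eif3m* lay at the other end, with 482, 518 and 518 in total and 555, 624 and 607 in IP RPFs of *Rps27-FLAG*. In *Rps27l-FLAG* it had 493, 500.0 and 469 in total and 561, 557 and 574 in IP RPFs, and its log2 fold change was 0.23 and 0.21 (SE 0.03 and 0.029). *Eif3k* had IP values of 419.6, 502 and 488 in *Rps27-FLAG* and 432, 431 and 464 in *Rps27l-FLAG*. Its total values were 388, 434 and 420.2 in *Rps27-FLAG* and 408, 380.1 and 403 in *Rps27l-FLAG*, and it passed with the block in both lines (0.18 and 0.15) but in neither with the CDS length trend removed as well. *Eif3b*, *Eif3e*, *Eif3f* and *Eif3g* were also higher in both lines with the block, between 0.10 and 0.19. *Eif3a* (-0.16), *Eif3i* (-0.14) and *Eif3l* (-0.11) were lower in *Rps27-FLAG* and did not pass in *Rps27l-FLAG*. With the CDS length trend removed *Eif3l* was no longer called in *Rps27-FLAG* (-0.05, edgeR adjusted p = 0.271) and *Eif3a* was called higher there (0.11, adjusted p = 0.00484). *Eif3c* and *Eif3h* did not pass in either line with the block alone. With the trend removed as well, *Eif3c* was called higher in *Rps27-FLAG* (0.22, edgeR adjusted p = 5.56e-10) and *Rps27l-FLAG* (0.21, adjusted p = 6.63e-08).

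Of the 4 eIF2 kinases, the block gave 2 lower in *Rps27-FLAG*, 1 lower in *Rps27l-FLAG* and none higher, beside 22.9% and 19% of all tested transcripts lower. *Eif2ak1* had 49.9, 52.6 and 51.8 in total and 38.3, 41.5 and 40.7 in IP RPFs of *Rps27-FLAG*. The *Rps27l-FLAG* clones had 51.8, 45.5 and 43.6 in total and 39.5, 32.4 and 39.9 in IP RPFs, and IP and total did not overlap in either line. The paired edgeR adjusted p was 2.39e-06 and 0.000185. *Eif2ak4* had IP values of 28.6, 22.1 and 31.3 in *Rps27-FLAG* (log2 fold change -0.33, SE 0.086, adjusted p = 0.000677 by edgeR with the block) and 29.7, 32.6 and 32.2 in *Rps27l-FLAG* (-0.20, SE 0.083, adjusted p = 0.0595). With the CDS length trend removed *Eif2ak4* was not called in *Rps27-FLAG* either (-0.01, edgeR adjusted p = 0.94). *Eif2ak3*, with IP values of 13.9, 16.5 and 16.3 in *Rps27-FLAG* and 13.6, 13 and 16.4 in *Rps27l-FLAG*, and *Eif2ak2* did not pass in either line.

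*Eif6* was lower in both lines, with 188, 186 and 178 in total and 157, 164 and 152 in IP RPFs of *Rps27-FLAG*. The *Rps27l-FLAG* clones had 173, 162 and 172 in total and 158, 149 and 137 in IP RPFs, and its paired log2 fold change was -0.22 and -0.18 (SE 0.037 and 0.04). *Eif4g3* was lower with the block in *Rps27l-FLAG* (-0.30, SE 0.067), where its IP values were 47.4, 65.7 and 33.5. In *Rps27-FLAG* they were 71.2, 82.5 and 81.3 and did not pass (-0.04, SE 0.052). *Eif5* and *Eif5b* were higher in both lines with the block, *Eif5b* by 0.15 and 0.14. *Eif2a*, an alternative carrier of initiator tRNA, was higher in both lines (0.18 and 0.15). *Eif1ad* and *Eif4g2* passed in *Rps27-FLAG* (0.19 and 0.19) and not in *Rps27l-FLAG*. *Eif1a*, *Eif2d*, *Eif4a3* and *Eif4g1* did not pass in either line with the block alone. Of eIF2B, *Eif2b1*, *Eif2b2* and *Eif2b4* were higher in *Rps27-FLAG* and *Eif2b2* in *Rps27l-FLAG*.

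**Figure D4:**
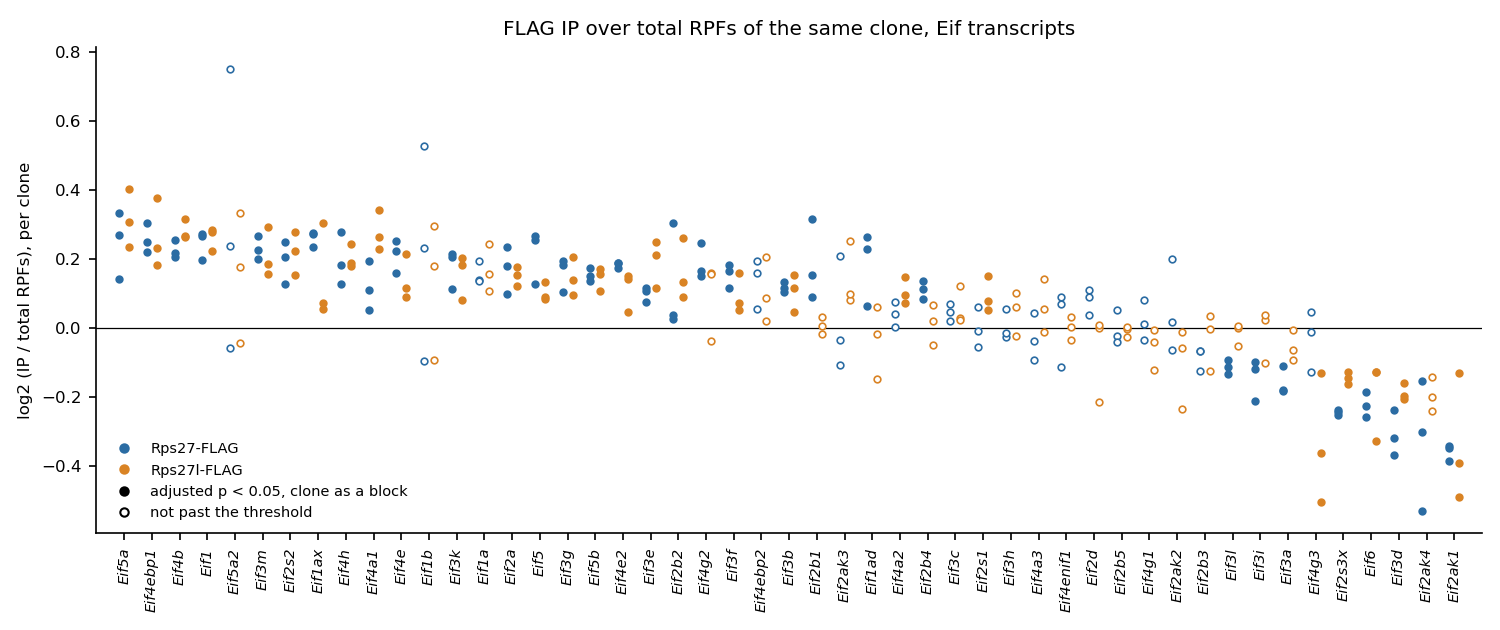
Log2 ratio of IP over total RPFs of the same clone for the 49 tested *Eif* transcripts (0.5 counts added), ordered by the mean of 6 clones, with 1 point per clone of *Rps27-FLAG* (blue) and *Rps27l-FLAG* (orange); filled points passed the adjusted threshold with the clone as a block. Transcripts such as *Eif4b* and *Eif1* lie above 0 in all 6 clones and *Eif2s3x*, *Eif6*, *Eif3d*, *Eif3a*, *Eif2ak4* and *Eif2ak1* below 0 in all 6, while *Eif5a2* and *Eif1b*, with few counts, scatter widely.

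The fold changes between IP and total RPFs ran with CDS length, in the family as in all transcripts. Spearman's rho between log2 fold change and CDS length, given as a description across genes that share the same libraries, was -0.64 over the 49 members in *Rps27-FLAG* and -0.49 in *Rps27l-FLAG*, beside -0.56 and -0.53 over all tested transcripts. In *Rps27-FLAG* the 10 members with a CDS of up to 600 nt had a median log2 fold change of 0.24, beside 0.19 for all 1201 transcripts of that length. The 6 members over 3000 nt had a median of -0.01, beside -0.28 for 1539 transcripts. Since members differ in length, the paired fit was repeated with the length trend of each library removed. It called 24 members higher (background 18.1%) and 5 lower (background 13%) in *Rps27-FLAG*, and 22 higher (background 14.3%) and 4 lower (background 7.85%) in *Rps27l-FLAG*. Of the 24 and 22 members higher in the paired fit, 17 and 17 were also called higher with the length trend removed, and 5 of 8 and 4 of 5 were also called lower.

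The members called lower in both of these fits were *Eif3d*, *Eif2s3x*, *Eif6* and *Eif2ak1* in both lines and *Eif3i* in *Rps27-FLAG*. *Eif6*, with a CDS of 738 nt, had -0.31 in *Rps27-FLAG* and -0.24 in *Rps27l-FLAG* once the trend was removed. *Eif3d* (1647 nt) had -0.24 and -0.12, *Eif2s3x* (1419 nt) had -0.20 and -0.09, and *Eif2ak1* (1860 nt) had -0.28 and -0.27. Among the higher members, *Eif4b* (1836 nt) had 0.30 and 0.36, *Eif5b* (3651 nt) 0.40 and 0.34, and *Eif3m* (1125 nt) 0.23 and 0.23, all with an adjusted p under the threshold. The fold changes of short members became smaller, and several calls were lost. In *Rps27-FLAG* the call was lost for *Eif1* (from 0.24 to 0.05, edgeR adjusted p = 0.228), *Eif4ebp1* (from 0.26 to 0.07, adjusted p = 0.117), *Eif3k* (from 0.18 to 0.07, adjusted p = 0.0859) and *Eif4e2* (from 0.18 to 0.09, adjusted p = 0.0807). The calls of *Eif1ad*, *Eif2b2* and *Eif4g2* were lost there as well. In *Rps27l-FLAG* it was lost for *Eif1ax* (from 0.15 to 0.01, adjusted p = 0.867), *Eif3k* (from 0.15 to 0.08, adjusted p = 0.0681), *Eif4e* (from 0.14 to 0.07, adjusted p = 0.188), *Eif4e2* (from 0.12 to 0.05, adjusted p = 0.401) and *Eif2s1* (from 0.10 to 0.08, adjusted p = 0.0521). *Eif5a* stayed called in both lines, with 0.09 and 0.19.

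Some long members changed sides or calls when the trend was removed. *Eif3a* (4035 nt) went from -0.16 to 0.11 in *Rps27-FLAG* and from -0.05 to 0.17 in *Rps27l-FLAG*, and *Eif4g1* (4803 nt) from 0.02 to 0.33 and from -0.06 to 0.19, and both were called higher. *Eif2ak4* (4947 nt) was no longer called, with -0.01 in *Rps27-FLAG*, nor was *Eif4g3* (4704 nt) in *Rps27l-FLAG*, with -0.05. In *Rps27-FLAG* *Eif4g3* went from -0.04 and not called to 0.27 and called higher (edgeR adjusted p = 7.07e-06). For *Eif4g2*, whose listed CDS is incomplete, the length used is that of the 483 nt. *Eif2b5* (2154 nt) went from -0.01 to 0.10 in *Rps27-FLAG* and from -0.01 to 0.09 in *Rps27l-FLAG*, and *Eif4enif1* (2952 nt) in *Rps27l-FLAG* from -0.00 to 0.16, all called higher. *Eif3c* (2736 nt) went from 0.05 to 0.22 in *Rps27-FLAG* and from 0.06 to 0.21 in *Rps27l-FLAG*. In *Rps27-FLAG* *Eif4enif1* went from 0.01 to 0.20 and *Eif2d* (1659 nt) from 0.08 to 0.14. These were also called higher only once the trend was removed. The direction or the call of these members thus depended on whether the length trend was kept.

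**Figure D5:**
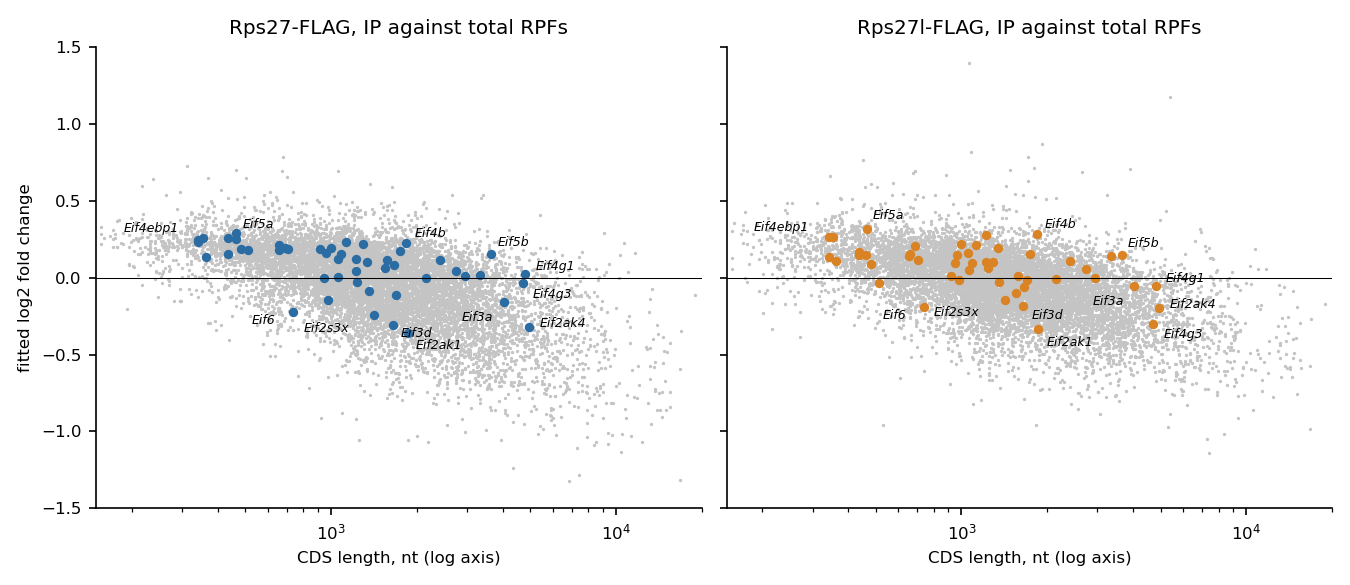
Fitted log2 fold change of IP against total RPFs (vertical axis) against CDS length in nt (log axis) for all tested transcripts (grey) and the 49 tested *Eif* transcripts (coloured), in *Rps27-FLAG* (left) and *Rps27l-FLAG* (right), without the clone block. Fold changes fall with length in both panels, and *Eif6*, *Eif3d*, *Eif2s3x* and *Eif2ak1* lie in the lower part of the cloud at their length, *Eif4b* and *Eif5b* in the upper part.

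Whether ribosomes with either paralog differ in the mRNAs they translate was asked by testing the IP effect of one line against that of the other, over 12 libraries and with a term for each clone. No *Eif* transcript passed the adjusted threshold together with an absolute log2 fold change over 0.25 (0 of 49, background 0.565%), and voom and DESeq2 called 0 as well. Members called in one line and not in the other were thus not shown to differ between the lines. At an unadjusted p under 0.05 edgeR and voom gave 14 members and DESeq2 gave 4, beside 1217 of all 10085 transcripts by edgeR. Without the limit on the fold change 1 member passed (background 1.49%). It was *Eif4a1*, whose log2 ratio of IP over total RPFs per clone was 0.05, 0.19 and 0.11 in *Rps27-FLAG* and 0.23, 0.34 and 0.26 in *Rps27l-FLAG*. The clones of the lines did not overlap, and the difference was 0.16 (SE 0.039, edgeR adjusted p = 0.00994). Its adjusted p was 0.101 without *Rps27l-FLAG* replicate 2 and 0.0847 without its replicate 3. It was 0.103 without *Rps27-FLAG* replicate 1 and 0.117 without its replicate 3. *Eif4g3* had -0.01, -0.13 and 0.05 in *Rps27-FLAG* and -0.36, -0.13 and -0.50 in *Rps27l-FLAG*, with a difference of -0.26 (SE 0.085, adjusted p = 0.108). It passed with the CDS length trend removed (-0.31, edgeR adjusted p = 0.0283) and without *Rps27l-FLAG* replicate 2 (-0.38, adjusted p = 0.0328). *Eif3d*, which was lower in the IP RPFs of both lines, had a difference of 0.12 (SE 0.04, adjusted p = 0.117) that did not pass.

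A further 34 genes of initiation and its control whose symbols do not start with *Eif* were followed alongside the family. By edgeR 0 of them passed in total RPFs, with or without the block. Without the block 1 was higher and 5 lower in the IP RPFs of *Rps27-FLAG*, against 2 higher and 5 lower for *Rps27l-FLAG*. Over all tested transcripts the shares called higher and lower were 0.327% and 5.34% for *Rps27-FLAG*, 0.833% and 2.27% for *Rps27l-FLAG*. Fold changes fell with CDS length over all transcripts, and these 34 genes were not refitted with that trend removed. The same 5 were lower in both lines. They were *Cyfip1*, which encodes a partner of the fragile X protein that binds eIF4E (log2 fold change -0.67 and -0.44), *Gcn1l1*, the activator of GCN2 (-0.59 and -0.36), *Mtor*, the kinase upstream of the 4E-binding proteins (-0.59 and -0.42), its partner *Rptor* (-0.56 and -0.47) and *Ppp1r15b*, a phosphatase subunit for eIF2 alpha (-0.55 and -0.47). *Paip2*, a binder of poly(A)-binding protein, was higher in *Rps27-FLAG* (0.26), and the helicase gene *Ddx3x* (0.20) and *Bzw1* (0.23), an eIF5 mimic, in *Rps27l-FLAG*. The clone block gave 13 higher and 9 lower genes for *Rps27-FLAG* and 8 higher with 7 lower for *Rps27l-FLAG*, beside backgrounds of 18.3% and 22.9% and of 12% and 19%. None passed the comparison of the IP effects with the fold limit. *Cyfip1* (0.23) and *Gcn1l1* (0.22) passed without it.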

How the data were processed

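Total and IP RPFs of 15 libraries were analysed. Per the labels and methods, the authors trimmed reads with cutadapt 2.4, removed duplicates by molecular identifiers with UMI-tools 1.0.1, aligned with Bowtie2 2.3.4.3 (build GRCm38, mm10), kept unique alignments and counted ribosomal A sites in the CDS, leaving aside 15 codons at its start and 5 at its end. The deposited values are these raw counts per transcript, and 0 columns were left out. Symbols, positions, CDS lengths and sequences came from GENCODE M21, which lists 21723 of the 21727 transcripts. The 13 transcripts of the mitochondrial genome were set aside. The filter kept those above 2 CPM in 14 or more of the 15 libraries, tested in R 4.3.3 with edgeR 4.0.16 (quasi-likelihood F-test, Benjamini-Hochberg, threshold 0.05), with TMM factors for IP and total RPFs separately. Normalized CPM are counts over TMM-scaled library sizes. An SE is the size of the fitted log2 fold change over the square root of F. The total RPFs were fitted with the line as the term, the IP RPFs against total RPFs with the fraction, and the difference of IP effects with clone and fraction within line, a limit of 0.25 on the log2 fold change and *Tmod3* not counted, as the study did. These models are those of the study's methods, which fitted them with voom and limma, run here as an alternative.

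By the labels, IP and total libraries that share a replicate number are from 1 clone. Their deviations from the condition means correlated with r of 0.468 to 0.790 in 6 clones, so the clone was also fitted as a block. Replicate number is also the library pool, and clones of other lines with the same number correlated in total RPFs with r of -0.164 to 0.713. Within conditions libraries differed by a chi-squared of 1.78 to 10.3 per degree of freedom, so none is a copy of another. Library totals of 3972152 to 8064166 counts set the precision.

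Alternatives were voom with limma 3.58.1, DESeq2 1.42.0, its size factors, TMM over all 15 libraries, CPM over 2 in at least 3 libraries, no filter, removal of the CDS length trend (loess, span 0.5), blocks, and each clone left out. Windows were compared with Python 3.11.15, pandas 2.3.3 and Biopython 1.88, and drawn with matplotlib 3.10.9. The tests were tried on simulated counts with a common spread and a clone effect. These counts had no effect of the library pool and no CDS length trend, so they do not bear on either. Named transcripts are the members called in each comparison (at most 5 each way), the 5 highest and 5 lowest per kb in WT, and pairs of near paralogs. The members, lists and rules were chosen with earlier results of these data known.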

Additional observations from a re-analysis of the deposited data

Results flagged for a closer look

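The IP effect on *Eif4a1* differed between the lines in the fit that tests the difference itself. The difference of *Rps27l-FLAG* minus *Rps27-FLAG* was 0.16 on the log2 scale (edgeR adjusted p = 0.00994 over 10085 transcripts), below the limit of 0.25 used for calls. Over the alternatives the difference lay between 0.12 and 0.20 and the adjusted p between 8.66e-28 and 1. The highest p came from the fit without the clone as a term.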

How the results depend on the processing

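Counts of called *Eif* transcripts depended most on the clone block and on CDS length. With the block, 32 in place of 4 members passed for IP against total RPFs in *Rps27-FLAG* and 27 in place of 4 in *Rps27l-FLAG*, and 29 and 26 with the block and the CDS length trend removed. With the trend removed but no block they were 0 and 1. In *Rps27-FLAG* CPM over 2 in at least 3 libraries gave 2 and no filter gave 1, and in *Rps27l-FLAG* DESeq2 gave 7. Leaving out 1 clone gave 0 to 20 members in *Rps27-FLAG* and 0 to 3 in *Rps27l-FLAG*. In total RPFs the library pool as a block gave 1 in place of 0 members in *Rps27l-FLAG* against WT and 1 against *Rps27-FLAG*, and with this block leaving out 1 replicate gave 0 to 1 and 0 to 2. For the difference of IP effects, 1 in place of 0 passed with the CDS length trend removed and 1 without the fold limit, and leaving out 1 clone gave 0 to 1. The paired fits without 1 clone, and those with the library pool as a block without 1 replicate, were chosen after seeing the data. The other alternatives kept each of these counts within 1.5 times. Shares of all tested transcripts are not set beside the counts of this paragraph, which describe how stable the calls were and not the family.

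Signs turned where the CDS length trend was removed. Listed are members called, or at an unadjusted p under 0.05, in the same comparison, and members called once the trend was removed. Others turned as well, such as *Eif4ebp2* in *Rps27l-FLAG* with the block (from 0.11 to -0.04, not called). In *Rps27-FLAG* *Eif1a* had -0.0142 without and -0.0125 with the block, *Eif3a* 0.11 and 0.11, and *Eif4ebp2* -0.0529 and -0.0443. In *Rps27l-FLAG* *Eif2ak4* had 0.0589 and 0.0562, *Eif3a* 0.17 and 0.17, *Eif4g1* 0.20 and 0.19, and *Eif4g2* -0.0302 and -0.0217. With the block, *Eif4g3* in *Rps27-FLAG* also turned, to 0.27, *Eif2b5* to 0.10 in *Rps27-FLAG* and 0.09 in *Rps27l-FLAG*, and *Eif4enif1* to 0.16 in *Rps27l-FLAG*, and these 3 were then called higher. These fits remove length by construction. With unique windows as the length, the WT level of *Eif4a3* was 111 in place of 57.3 CPM per kb and that of *Eif1a* 178 in place of 103. The cause of the other differences was not tested. Depth limits *Eif1b*, *Eif5a2* and *Eif2ak3*, which had at most 96, 62 and 142 counts in a library.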
